A study of Mus musculus with 6 samples.

Results

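The protein kinase C isoforms beta (Prkcb), theta (Prkcq), epsilon (Prkce) and eta (Prkch) and protein kinase D3 (Prkd3) were followed across 3 clonal lines of EL4, a mouse T cell lymphoma line. Their members are the probe sets whose deposited gene name, in either of the authors' lists of differing probe sets, is the full name of one of these 5 kinases. The rule found all 5 genes, of the 1810 named there, through 8 probe sets of the 2451 in those lists and of the 45101 on the array. There were 2 each for Prkcb, Prkch and Prkd3 and 1 each for Prkcq and Prkce. Prkd3 was deposited under its older name, protein kinase C nu, and Prkcb as protein kinase C beta 1. Other probe sets of these genes carry no name in the sources used here and were not analysed.

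RNA of 3 lines, each with 2 aliquots handled side by side, was hybridised to 6 Affymetrix arrays. WT2 is labelled PMA-sensitive, non-adherent and non-metastatic, V7 PMA-resistant, adherent and metastatic, and C5 PMA-resistant, adherent and highly metastatic. All 3 were left overnight without serum and received no other treatment, so no line was exposed to PMA in this experiment. Each set of labels is represented by 1 clone, and nothing in the labels says that the aliquots came from separate cultures.

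PMA is a phorbol ester that takes the place of the lipid messenger diacylglycerol. Both bind the C1 domains of protein kinase C and draw the enzyme to the membrane, where it becomes active. The conventional isoform beta also needs calcium, whereas the members theta, eta and epsilon belong to the calcium-independent group that diacylglycerol activates. Protein kinase D enzymes also carry C1 domains, and they are in addition phosphorylated and switched on by protein kinase C. In T cells theta is the isoform that links the antigen receptor and CD28 to NF-kappaB.

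A signal here is the linear MAS5 intensity of a probe set, and signals are compared between lines for the same probe set. The marker sums below are an exception, as they add signals of different probe sets. They are no measure of the share of any cell type. All 6 arrays were scaled to the same trimmed mean, and median signals were between 15.8 and 21.5. For the Gapdh array control, signal at the 3' end over signal at the 5' end, a measure of RNA or labelling quality, was 1.51 to 1.77 in WT2, 0.887 to 0.960 in V7 and 0.829 to 1.15 in C5. It therefore moved with every difference between WT2 and the other lines given below, and its part in them was not tested. That of beta-actin was 1.83 to 2.04, 2.04 to 2.50 and 1.87 to 2.91. Of 13 T cell marker genes 6 were named, and their summed signal was 4075 to 4141 in WT2, 2545 to 2577 in V7 and 2238 to 2745 in C5. The receptor chain Cd3e was well measured in all lines (2008 ± 199.6, 982 ± 92.6 and 1031 ± 184.5 in WT2, V7 and C5; mean ± SD, n = 2), while Cd2, Cd6 and Cd247 had mean signals of 5.38 or less in V7 and C5. The adaptor Trat1 went the other way, from a mean of 3.78 in WT2 to 1439 in V7 and 1407 in C5, where it made up the larger part of the mean sum. The 1 named natural killer marker, Gzma, ran from 24.97 to 38.3 in WT2, 108 to 130.2 in V7 and 249 to 334 in C5. Of 5 fibroblast markers 2 were named, with a summed signal of 5591 to 6388 in WT2, 121 to 129.6 in V7 and 89.4 to 99.7 in C5. In WT2 nearly all of it was Acta2, which was read on a probe set with probes shared between transcripts. The other, Pdgfra, was instead higher in V7 (mean 75.9) and C5 (47.7) than in WT2 (2.29). No B cell, myeloid, epithelial or erythroid marker was named, and the part of any of these cells in the results was not tested. A marker could be named only if the authors had listed it as different between lines. The lack of a name therefore says nothing of a marker's level, and the named markers are the differing ones only.

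Prkcb was high in WT2 and close to the bottom of the signal range in V7 and C5. Its brighter probe set, 1460419_a_at, read 1265 and 1312 in the WT2 aliquots, 10.7 and 12.2 in V7, and 1.01 and 9.66 in C5. The V7 mean was thus 0.889% of the WT2 mean and the C5 mean 0.414%. Both V7 and both C5 values lay far below both WT2 values, the lowest WT2 signal being 104 times the highest V7 signal. In bulk RNA, fewer cells with a transcript and less transcript per cell cannot be told apart. The other Prkcb probe set, 1423478_at, read 412 and 448 in WT2, 0.883 and 4.90 in V7 and 2.09 and 2.24 in C5. It gave the same order of WT2 above the other lines, with V7 and C5 overlapping.

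Prkd3 followed the same course. Its probe set 1428229_at read 207 and 192 in WT2, 6.30 and 3.05 in V7 and 13.1 and 2.41 in C5. The companion 1428230_at read 176 and 192 in WT2, 0.474 and 0.797 in V7 and 4.84 and 3.38 in C5. In both probe sets every WT2 value lay above all V7 and C5 values. V7 and C5 overlapped in the first, and in the second they did not overlap, but all 4 of those signals were below the constant of 5.04 that was added before taking logs. Both Prkd3 probe sets carry the same source identifier in the deposited list, so they are not independent views of the transcript.

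Prkcq, the isoform of antigen receptor signalling, was lower in V7 and C5 but not lost. Its probe set 1426044_a_at read 305 and 363 in WT2, 93.4 and 90.3 in V7 and 53.8 and 83.6 in C5. C5 lay below V7 on both arrays, although the C5 aliquots differed 1.55-fold from each other. Prkce, the epsilon isoform, read 164 and 176 in WT2, 47.3 and 66.3 in V7 and 47.9 and 48.1 in C5 (1452878_at). WT2 stood above both lines, and the C5 values fell within the V7 range.

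Prkch, the eta isoform, was lowest in V7 and intermediate in C5. Its probe set 1434248_at read 1429 and 1505 in WT2, 504 and 455 in V7 and 1132 and 983 in C5. The other, 1422079_at, read 481 and 518 in WT2, 171 and 181 in V7 and 405 and 399 in C5. In both the order was WT2, then C5, then V7, with no overlap between any pair of lines. V7 had 32.7% and 35.2% of the WT2 mean, and C5 had 72.1% and 80.6%.

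**Figure D1:**
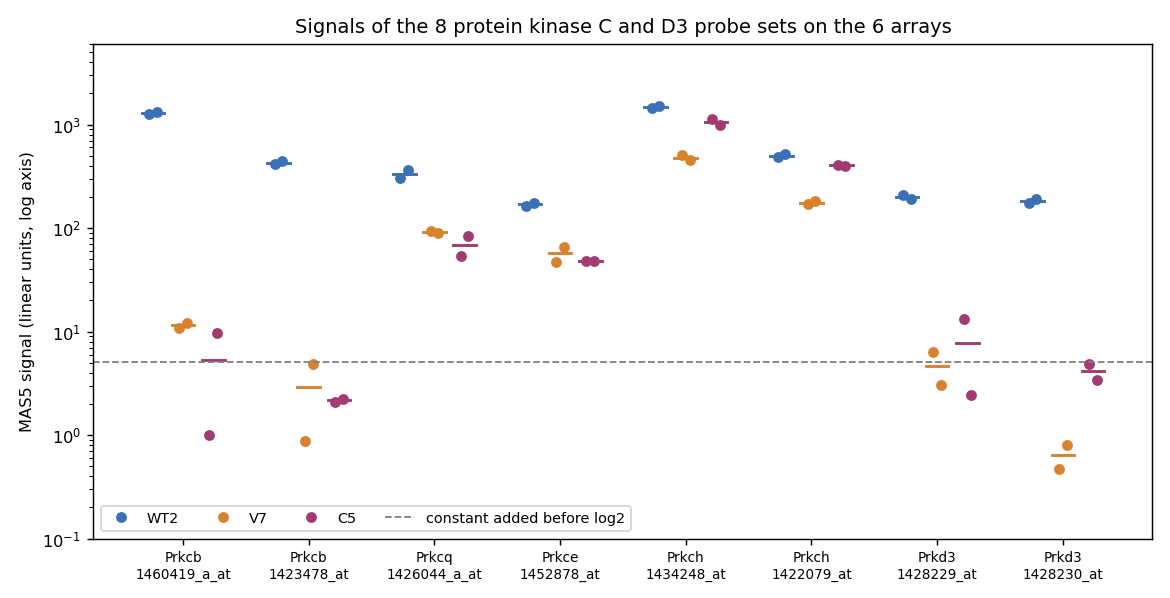
MAS5 signal (log axis) of each member probe set on each array, with 2 points per line and a short bar at their mean; the dashed line marks the constant of 5.04 added before log2. The Prkcb and Prkd3 points of V7 and C5 lie at 13.1 or below, Prkcq and Prkce keep signals of 47.3 or more, and the C5 points of Prkch lie between those of V7 and WT2.

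Of the 5 kinases, Prkcb, Prkcq and Prkd3, had promoter windows in the RefSeq table (GRCm38.p6), which covers 250 bases before to 50 after an annotated start. Prkch and Prkce had none there. The windows are shown because these genes were all lower in V7 and C5 than in WT2. Capitals mark matches, on either strand, to 6 motifs: the AP-1 site TGANTCA, which mediates many phorbol ester responses, the E-box CACGTG, the GC box GGGCGG, the ETS core CCGGAAG, the RUNX core TGTGGT and the TATA box TATAAA.
Prkcb, chr7:122288875-122289174, plus strand: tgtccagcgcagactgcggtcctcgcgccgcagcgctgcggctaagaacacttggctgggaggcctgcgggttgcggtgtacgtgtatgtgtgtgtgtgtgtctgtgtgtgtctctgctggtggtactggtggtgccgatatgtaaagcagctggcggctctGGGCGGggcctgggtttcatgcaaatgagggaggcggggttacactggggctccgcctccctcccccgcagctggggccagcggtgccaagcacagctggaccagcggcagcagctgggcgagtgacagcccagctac
Prkcq, chr2:11172132-11172431, plus strand: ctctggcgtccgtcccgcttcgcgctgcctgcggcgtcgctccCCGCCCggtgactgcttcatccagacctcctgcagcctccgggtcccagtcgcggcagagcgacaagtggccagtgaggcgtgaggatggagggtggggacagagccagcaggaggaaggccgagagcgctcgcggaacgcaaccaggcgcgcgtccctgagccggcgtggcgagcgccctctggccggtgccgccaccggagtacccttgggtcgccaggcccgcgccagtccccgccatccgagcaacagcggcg
Prkd3, chr17:79020767-79021066, minus strand: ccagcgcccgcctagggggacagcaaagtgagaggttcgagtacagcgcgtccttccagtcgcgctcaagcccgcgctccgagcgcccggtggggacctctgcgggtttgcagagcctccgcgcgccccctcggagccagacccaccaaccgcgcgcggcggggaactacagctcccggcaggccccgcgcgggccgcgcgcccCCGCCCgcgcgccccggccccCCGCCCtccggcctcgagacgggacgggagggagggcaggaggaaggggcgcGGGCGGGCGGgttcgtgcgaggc

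All capitals in these windows are GC boxes. Prkcb had 1 on the gene's own strand, beginning 88 bases before the start, and Prkcq had 1 on the opposite strand, beginning 207 bases before it. Prkd3 had 4, of which a pair after the start overlap each other. A GC box was held by 35.7% of all 32851 windows, an AP-1 site by 7.81%, an E-box by 7.15%, the ETS core by 8.86%, the RUNX core by 16.8% and the TATA box by 13.6%. The GC content was 65.3% for Prkcb, 73.0% for Prkcq and 78.0% for Prkd3, against a median of 52.7% over all windows. A second annotated Prkd3 start, not shown, lay in a window with 40.7% GC that held 1 RUNX core. These matches are letters in a window and say nothing of whether a factor binds there.

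The comparison of V7 with WT2 sets a PMA-resistant clone beside a PMA-sensitive one. All 8 probe sets, and so all 5 kinases, were lower in V7. The log2 changes were −6.29 (SE 0.36) and −5.82 (SE 0.39) for the brighter and dimmer Prkcb probe sets and −4.41 (SE 0.46) and −5.06 (SE 0.45) for those of Prkd3. They were −1.80 (SE 0.23) for Prkcq, −1.52 (SE 0.23) for Prkce, and −1.60 (SE 0.13) and −1.48 (SE 0.15) for Prkch. The kinases were thus divided into a pair that was almost lost and 3 that kept between 27.5% and 35.2% of their WT2 signal. The median over the 8 was −3.10, beside −0.13 over all 27022 probe sets tested. All 8 were lower by at least 2-fold at a limma adjusted p below 0.05, and all 8 had V7 arrays wholly below the WT2 arrays. Over all tested probe sets 7.24% met the first condition and 36.8% the second. Nothing can be read from this contrast between the members and the background, because every member was on the authors' list of differences between exactly these arrays. The Prkcb and Prkd3 probe sets also passed the filter on low signals (a mean above 11.7) through WT2 alone, as their V7 and C5 means were below that limit. For these reasons these changes are a description and carry no test.

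The size of the larger changes depended on the constant added before logs, since V7 signals of Prkcb and Prkd3 were near or below it. With 1 added, the log2 changes were −6.70 and −7.01 for Prkcb and −5.20 and −6.83 for Prkd3. With the median signal of 18.1 added they were −5.47 and −4.42 for Prkcb and −3.26 and −3.43 for Prkd3. Which Prkcb probe set changed more therefore rests on this choice. In contrast, Prkcq stayed between −1.85 and −1.68, Prkce between −1.59 and −1.34 and the Prkch probe sets between −1.61 and −1.41.

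**Figure D2:**
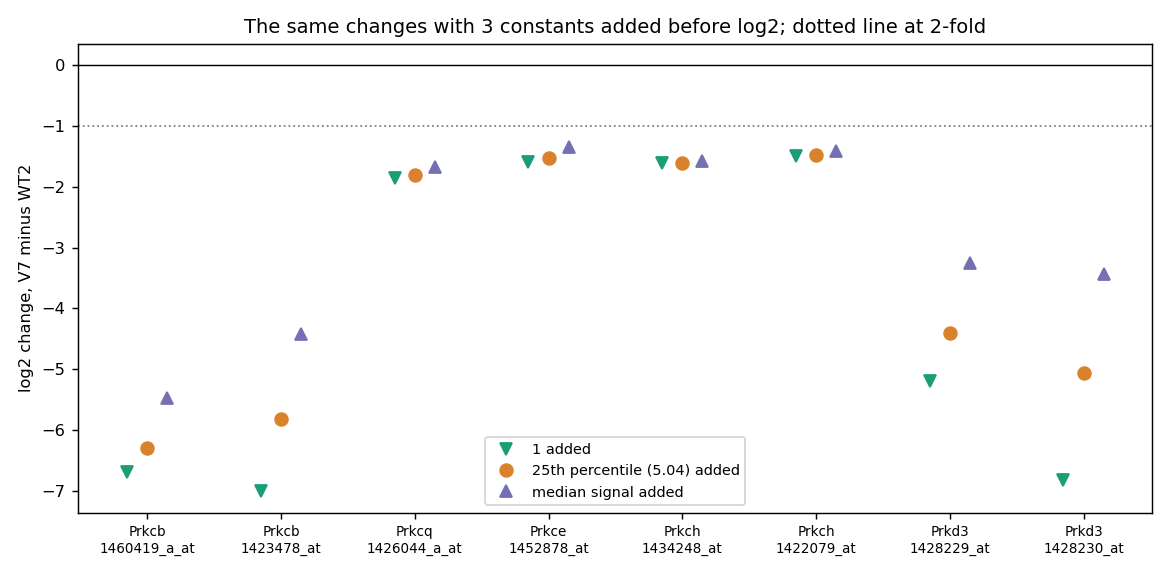
Log2 change of V7 minus WT2 for each member probe set, computed with 1, with 5.04 or with the median signal of 18.1 added before log2. The 3 symbols spread over more than 1 log2 unit for Prkcb and Prkd3 and lie close together for Prkcq, Prkce and Prkch, and all lie below the dotted 2-fold line.

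In the authors' deposited table for V7 and WT2, the ratios of Prkcb were 63.05 and 27.25 and those of Prkd3 were 21.25 and 12.68, all with V7 lower. The authors' deposited table gave 2.68 and 2.33 for Prkch, 2.53 for Prkcq and 2.47 for Prkce. The median ratio of its 2420 probe sets was 2.79, so by the authors' values Prkcb and Prkd3 were above the middle of that list and the other 3 kinases below it. Their adjusted p-values in the authors' deposited table ran from 0.00887 to 0.0171. The authors' ratios do not rest on the same values as the changes fitted here. For Prkd3 1428230_at their V7 log2 mean was 2.93, whereas its V7 signals of 0.474 and 0.797 have negative logs. By their ratios 1428229_at changed more (21.25) than 1428230_at (12.68), the reverse of the order fitted here.

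The comparison of C5 with V7 asks how 2 PMA-resistant, adherent clones with different metastasis labels differ. The members were named from differences between V7 and WT2, and Prkch 1434248_at also from the difference between C5 and V7. The arrays used here thus also chose them, and this comparison is not independent of that choice. Prkch was higher in C5, and no other member passed. The probe set 1422079_at rose by 1.17 on the log2 scale (SE 0.15, limma adjusted p = 0.0108). Its mean signals were 176 ± 7.24 for V7 and 402 ± 4.48 for C5 (SD, n = 2). The authors did not list this probe set for this comparison, but they listed its gene through 1434248_at. The p-value is thus no independent test of Prkch. The probe set 1434248_at was on the authors' list for this comparison, so its change of 1.13 (SE 0.13; 479 ± 34.7 to 1058 ± 105) is a description, as is the ratio of 2.04 in the authors' deposited table. Of all 27022 probe sets tested, 0.0296% were called higher in C5 and 0.0999% either way. Nothing can be read from setting Prkch beside these shares, because the gene was on the authors' list for this comparison. Both Prkch probe sets report 1 gene, so they count as 1 observation of it.

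The Prkch call for C5 and V7 was lost without any single V7 or C5 array and without the variance trend. The log2 change of 1422079_at stayed between 1.13 and 1.21 when any 1 array was left out, but its limma adjusted p rose to 0.206 or 0.177 when V7 aliquot 1 or 2 was left out and to 0.154 or 0.122 when C5 aliquot 1 or 2 was. It was 0.344 when the variance was not allowed to follow the signal, and the call was kept when either WT2 array was left out (0.00671 and 0.00646).

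For the remaining kinases the C5 and V7 levels were not told apart. The log2 change from V7 to C5 was −0.42 for Prkcq, with a 95% interval from −0.92 to 0.07 (limma adjusted p = 0.838). It was −0.21 for Prkce (−0.72 to 0.31, limma adjusted p = 0.959). The intervals for Prkcb ran from −1.60 to −0.01 for the brighter probe set and from −0.95 to 0.77 for the dimmer (limma adjusted p = 0.751 and 0.993). Those for Prkd3 ran from −0.73 to 1.29 and from −0.29 to 1.66 (limma adjusted p = 0.976 and 0.894). Changes of 2-fold thus remain within the intervals of the brighter Prkcb probe set and both Prkd3 probe sets, and all Prkcb and Prkd3 signals in these lines were at 13.1 or below. Over the 8 probe sets, 5 had arrays that did not overlap between C5 and V7, against 38.9% of all tested probe sets. The median change was 0.10, beside 0.02 for all tested. These contrasts with the background say nothing of the members. Among those without overlap were both probe sets of Prkch, a gene on the authors' list for this comparison. The brighter Prkcb and the dimmer Prkd3 probe set were also among them, and they passed the filter on low signals through WT2 alone.

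**Figure D3:**
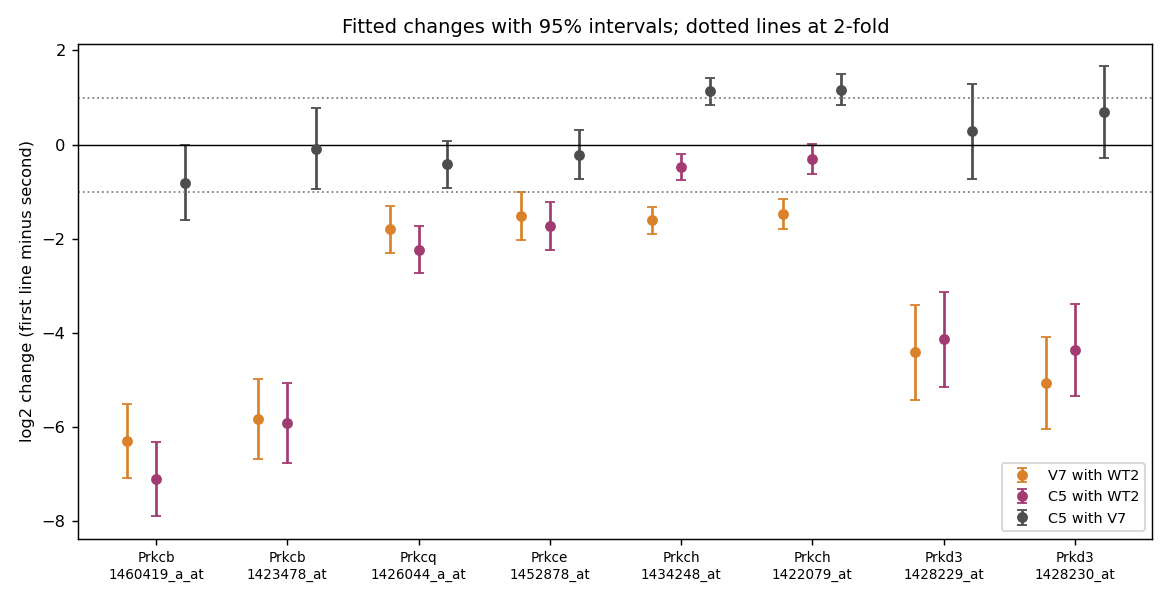
Fitted log2 change of each member probe set in the 3 comparisons, with bars for the 95% interval and dotted lines at 2-fold. The points for C5 with V7 lie above 1 for both Prkch probe sets alone, and the points for C5 with WT2 lie below −1 for every probe set except those of Prkch.

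The comparison of C5 with WT2 was not used to list probe sets, but it shares the WT2 arrays with the list that named the members, so it is not independent of that choice. Prkcb, Prkd3, Prkcq and Prkce were lower in C5, whereas Prkch did not reach 2-fold. The log2 changes were −7.10 (SE 0.36) and −5.91 (SE 0.39) for Prkcb and −4.13 (SE 0.46) and −4.37 (SE 0.45) for Prkd3. These 4 probe sets passed the filter on low signals through WT2 alone, so their changes are a description and carry no test. Prkcq fell by 2.23 (SE 0.23, limma adjusted p = 2.8e-05) and Prkce by 1.72 (SE 0.23, limma adjusted p = 0.000234). Both were named for a difference from V7 on the same WT2 arrays. Their p-values are thus no independent test, and these changes are a description as well. With 1 or the median signal added, the changes of Prkcb were −8.12 and −5.83 for the brighter and −7.09 and −4.47 for the dimmer probe set. Those of Prkd3 were −4.85 and −3.10, and −5.19 and −3.19. Single C5 arrays also set the size where the aliquots differed most. Without C5 aliquot 1 or 2 the change was −6.46 or −7.74 for the brighter Prkcb probe set and −4.77 or −3.49 for Prkd3 1428229_at.

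The Prkch change between C5 and WT2 was −0.47 for 1434248_at (95% interval −0.76 to −0.19, limma adjusted p = 0.0194) and −0.31 for 1422079_at (−0.63 to 0.02, limma adjusted p = 0.158). Both intervals lie within 2-fold. In all, 6 of the 8 probe sets, from 4 of the 5 kinases, were called lower in C5 than in WT2, against 7.46% of all tested probe sets. The median change was −3.18, beside −0.07 over all tested. All 8 had C5 arrays wholly below the WT2 arrays, which held for 33.4% of those tested. Nothing can be read from these contrasts with the background, since the members were chosen on the same WT2 arrays.

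**Figure D4:**
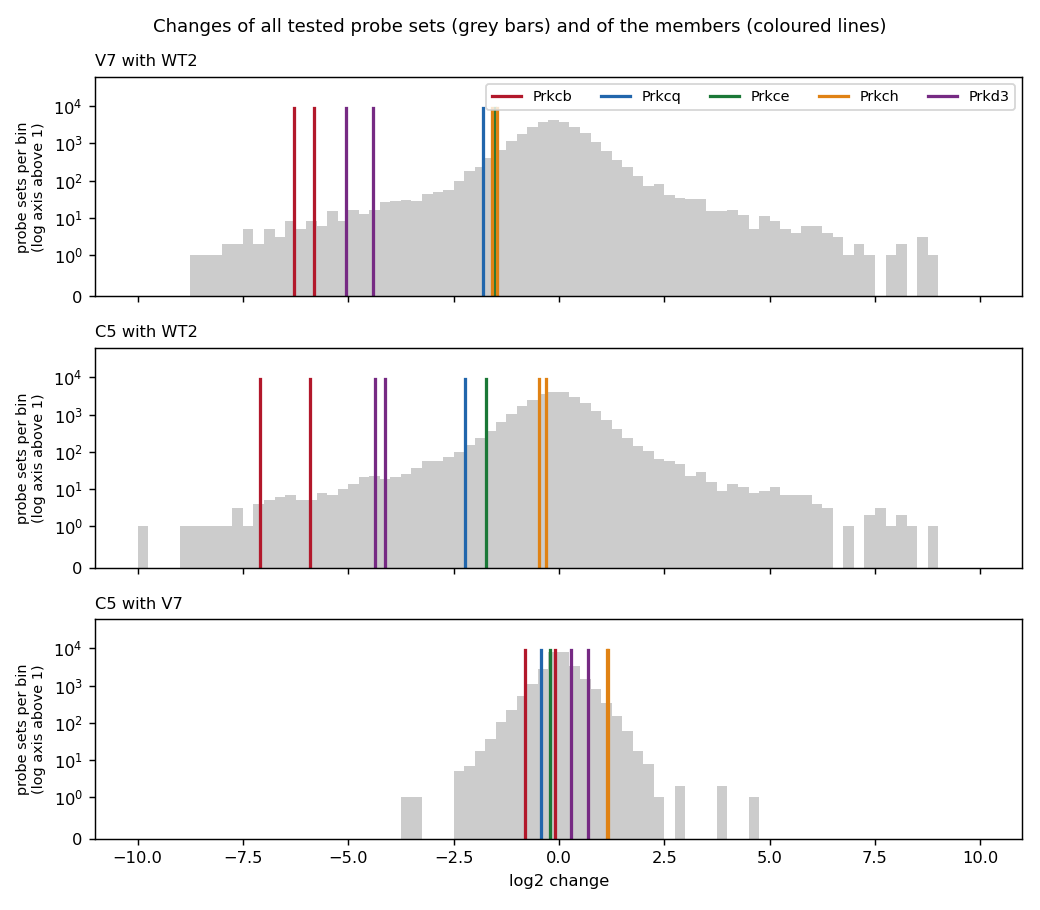
Number of tested probe sets per 0.25 log2 units of change (grey bars, axis logarithmic above 1) in the 3 comparisons, with a line at each member probe set. Prkcb and Prkd3 lie in the far lower tail against WT2 in both V7 and C5, where they were placed by the choice of members, and the Prkch lines lie at 1.13 and 1.17 for C5 with V7.

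Within the family, the genes with 2 probe sets gave closely similar changes for Prkch and less similar ones for Prkcb and Prkd3. For Prkch the log2 changes of the probe sets differed by 0.13 for V7 against WT2, by 0.04 for C5 against V7 and by 0.17 for C5 against WT2. For Prkcb they differed, in the same order, by 0.47, 0.71 and 1.19, and for Prkd3 by 0.64, 0.41 and 0.24. Over the 6 arrays, each gene's log2 values were centred on their own mean, and likeness was measured as the root mean square difference between 2 genes' centred values. Prkcq and Prkce were the most alike of the 10 member pairs at 0.30 log2 units, and Prkcb and Prkch the least alike at 2.82. Prkcb and Prkd3 differed by 1.44.

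By the same measure, the closest of 1675 other listed genes to Prkcb were Membrane-spanning 4-domains, subfamily A, member 6B (0.24) and Leukotriene B4 12-hydroxydehydrogenase (0.42). Closest to Prkcq were the glucose transporter Solute carrier family 2 member 8 (0.15) and Angiomotin-like 1 (0.17). Prkce was nearest to the Inturned planar cell polarity effector homolog (0.07) and Histidine triad nucleotide binding protein 2 (0.08). Prkch was nearest to the chemokine receptor Cxcr6 (0.18) and the Alstrom syndrome 1 homolog (0.20). For Prkd3 the nearest entries were cDNA sequence BC021614 (0.21) and Hypothetical LOC668215 (0.28). The median candidate stood 3.58, 1.41, 1.24, 1.13 and 2.45 log2 units from Prkcb, Prkcq, Prkce, Prkch and Prkd3.

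Other genes of the pathway were read from lists drawn up by function, although a gene could be named only if the authors had listed it as different. The counts, medians and changes against WT2 in these lists are therefore a description, and no list was tested. None of the 10 other protein kinase C, D and N genes, such as the alpha, delta and zeta isoforms, had a named probe set, so the remainder of the family was not analysed here. Among all 1804 listed names tested, 39.3% were called lower and 42.7% higher in V7 than in WT2, and 38.3% lower and 39.9% higher in C5 than in WT2. Between C5 and V7 only 0.665% were called lower and 0.277% higher in C5. That no gene of a short list passed there is therefore no result about that list.

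Of 23 other C1 domain genes 3 were named. The Ras activator Rasgrp1, which binds phorbol esters, was lower in V7 (log2 change −2.23), as was the diacylglycerol kinase Dgka, which removes diacylglycerol (−3.10). Rasgrp2, an activator of the GTPase Rap1, was higher (1.15). The median was −2.23. In C5 against WT2, Rasgrp1 (−2.17) and Dgka (−3.13) were again lower, and Rasgrp2 changed by 0.50, below 2-fold. None of the 3 passed between C5 and V7.

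Of the 21 genes on the route around theta in T cells 6 were named, and 5 of them were lower and 1 higher in V7 and likewise in C5 than in WT2, with medians of −1.66 and −1.58. Both phospholipases C gamma, which make diacylglycerol, were lower: Plcg2 changed by −4.93 in V7 and −5.20 in C5, and Plcg1 by −2.86 and −2.54. Plcg2 passed the filter on low signals through WT2 alone, with means of 473 in WT2, 11.6 in V7 and 7.84 in C5. All 6 genes were also named from the authors' lists of differences on these same arrays. Their changes against WT2, and the count of 5 lower genes, are therefore a description and carry no test. The adaptor Lcp2 (−1.89 and −1.27), the Src-family kinase Fyn (−1.35 and −1.70) and the NF-kappaB inhibitor Nfkbia (−1.43 and −1.47) were lower as well. The kinase Stk39, which phosphorylates ion cotransporters and is known as a substrate of theta, was higher (1.09 and 1.36) on a probe set with shared probes. None of these 6 passed between C5 and V7, the largest change there being that of Lcp2 (0.62, limma adjusted p = 0.305).

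Of 20 regulators, anchors and substrates of protein kinase C 6 were named. In V7 against WT2, 2 were lower, 1 was higher and 3 did not pass, with a median of 0.04. Marcks, a membrane-bound substrate that binds actin, changed by −3.77 on a probe set with shared probes, and the membrane skeleton protein Add3 by −2.59. The 14-3-3 protein Ywhaz was higher (1.14). The phosphatase Phlpp1, which removes phosphate from protein kinase C and Akt, changed by 0.88, below 2-fold. In C5 against WT2, Marcks (−3.09), Add3 (−2.69) and the substrate neurogranin, Nrgn (−1.30), were lower and Ywhaz (1.30) higher. Of 12 protein kinase D substrates 3 were named, of which the cofilin phosphatase Ssh1 was lower in V7 (−1.24) and C5 (−1.32). The histone deacetylases Hdac5 (0.59 and 0.39) and Hdac9 (0.42 and 0.38) did not pass. None of the 9 genes of these lists passed between C5 and V7.

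**Figure D5:**
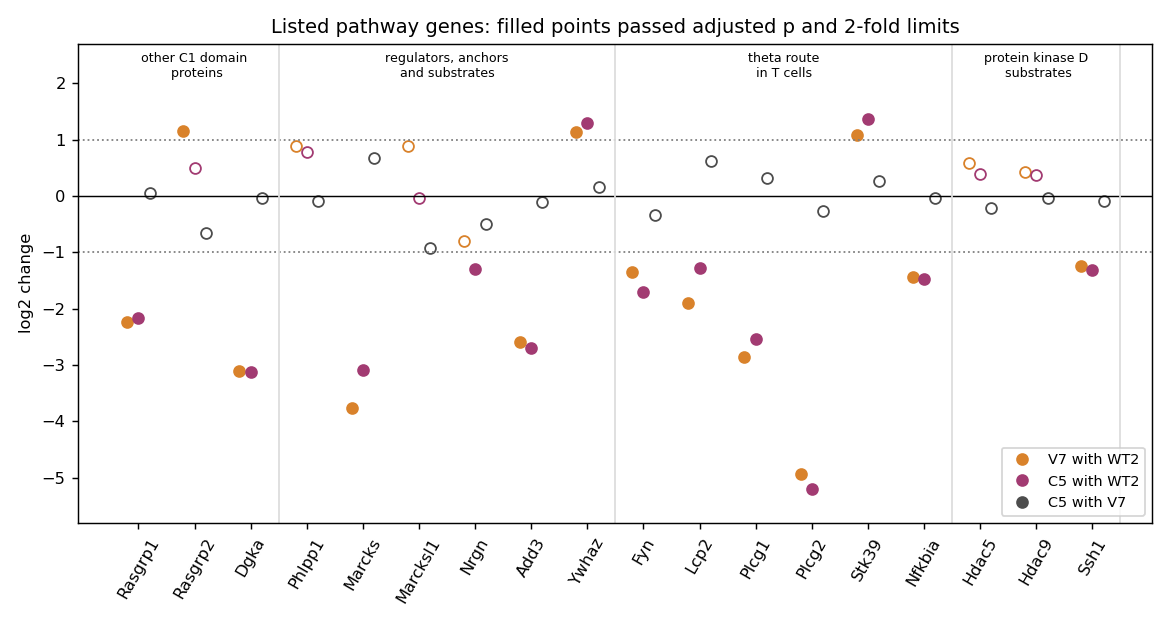
Log2 change of each named pathway gene in the 3 comparisons, grouped by list, with filled points for genes past both limits and open points for the others. In the list around theta, 5 of 6 genes lie below −1 in both V7 and C5 against WT2, and every point for C5 with V7 is open.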

How the data were processed

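Signals were deposited by the authors as linear intensity values, made with MAS5 per the submitters' processing notes, with no version given in the sources used here. Each array had been scaled by the authors to one 2% trimmed mean of 125. Detection calls were not used here. The authors' deposited lists give, per the file headers, log2 means and standard errors, a fold ratio, and p-values of a t-test with Benjamini and Hochberg adjustment. They served for gene names and as a description. Names were matched by hand to symbols. Symbols were checked by accession only where the deposited identifier was found in RefSeq. Among the members this held for Prkch 1422079_at alone, and the other member assignments rest on the deposited names. RefSeq synonyms of the members were looked up.

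Signals were analysed as log2(signal + 5.04), where 5.04 is the 25th percentile over all arrays. Array controls were left out, and the 27022 others whose mean exceeded the 40th percentile of mean signals (11.7) were fitted in limma 3.58.1 (R 4.3.3) with 1 mean per line over all 6 arrays and a variance trend (3 residual and 8.47 prior degrees of freedom). All 8 members passed this filter. A call needed a two-sided Benjamini-Hochberg adjusted p below 0.05 over all tested probe sets and at least 2-fold change. Lists were read on each gene's brightest named probe set. Because the aliquots may not be separate cultures, p-values speak only of their spread, which can be technical. Alternatives changed the constant, filter, normalization, variance model, block, threshold and arrays. The fit was also run on simulated arrays with rises planted in V7 only. That run does not show how the fit treats falls to the bottom of the signal range. Tables and plots were made in Python 3.11.15 (pandas 2.3.3, matplotlib 3.10.9). The number of arrays limits the precision. The rule for naming took all members, 2 genes most like each member, excluding probe sets whose probes are shared between transcripts (suffix _s or _x), and the called genes of the lists. The members and lists were chosen with earlier results of these data known.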

Additional observations from a re-analysis of the deposited data

How the results depend on the processing

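Against WT2, 8 member probe sets in V7 and 6 in C5 were called under each of the 14 alternatives, single arrays left out included, but the members were chosen on these WT2 arrays, so this is no sign of stability. For C5 with V7 the 2 member calls, both Prkch, became 0 without the variance trend and 1 at an adjusted p below 0.01, and ranged from 0 to 2 with 1 array left out. They were 0 without any single V7 or C5 array, where 1 array stands for that line and is assumed to vary like the others, and 2 without either WT2 array. The total of 27 probe sets called between C5 and V7 was 55 with the median signal added, 4 without the trend, 13 at an adjusted p below 0.01 and 5 to 68 with 1 array left out, and the cause was not tested. Between C5 and V7, changes that were not called turned sign when 1 array was left out, ranging from −0.46 to 0.28 for Prkcb 1423478_at, from −0.43 to 0.02 for Prkce and from −0.36 to 0.92 for Prkd3 1428229_at. With the aliquot number as a replicate block, 15 probe sets were called between C5 and V7 and 3267 between V7 and WT2, and the members' calls stayed at 8, 2 and 6. Same-numbered arrays did not deviate together over the tested probe sets (correlations of −0.04, 0.003 and 0.04). Whether same-numbered aliquots were handled together cannot be read from this. Under quantile normalization the calls between V7 and WT2 were 1704 higher and 1541 lower, against 1430 and 1956, and between C5 and WT2 1805 and 1748, against 1509 and 2016, while all 8 members stayed lower in both. It moved the median log2 change of all tested probe sets between V7 and WT2 from −0.13 to 0.01, and those of the members, which then ran from −6.22 to −1.42, by 0.12 or less.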

Other observations

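The probe set 1434248_at of Prkch stood on both of the authors' lists, and its V7 log2 mean was 9.002 in the authors' deposited table for V7 and WT2 and 9.149 in the authors' deposited table for C5 and V7. The C5 aliquots differed 1.55-fold from each other on Prkcq, but by no more than 1.15-fold on both Prkch probe sets.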
